A study of Cyprinodon variegatus with 4 samples.

Results

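Sheepshead minnow larvae (Cyprinodon variegatus, an estuarine killifish used in toxicity testing), sequenced whole, that had been kept with polyethylene terephthalate (PET) microfibres at 100 mg/L were set against larvae kept with the same fibres at 10 mg/L. These were 2 of the 4 RNA libraries of the study. The other two were an untreated control and a surfactant control kept in Tween 80 at 0.001%, a detergent used to disperse particles in water. Exposure lasted 10 days in each case, and the stage in the labels, 72 h after fertilization, was taken to be when it began. The labels do not say for each sample whether the fibre suspensions held Tween 80, nor how many larvae went into a library. Expression was given as FPKM, a count of mapped fragments scaled to the length of an assembled contig and to the size of the library. The table held 257521 contigs, of which 24404 carried 1 of 9609 protein annotations. FPKM was summed over the contigs of an annotation, and 2686 annotations averaging 10 FPKM or more across all 4 libraries were kept. Each library was scaled by its median ratio to PET 10 mg/L, and ratios are log2 ratios of the scaled sums plus a pseudocount of 0.5, which understates the ratios of low values. Every group is 1 library, so nothing reported here has a replicate check, no p-value exists, and all values compare libraries rather than conditions.

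PET microfibres are shed from polyester textiles and can be swallowed by fish or caught on gills and skin. Early fish larvae rely on innate defences, among them the complement cascade, a set of plasma proteins made mostly in the liver that mark and lyse microbes, and on soluble lectins and intracellular receptors of the NLR family. The study's title points to 2 putative targets: Merkel cells, which sense touch in skin, and the corpuscles of Stannius, glands whose hormone stanniocalcin lowers calcium.

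FPKM summed to between 1039707 and 1080208 per library, and 42.7% to 43.2% of it lay in annotated contigs. Since FPKM is already scaled to library size, these sums do not show how deeply a library was sequenced. Absolute depth is unknown. Relative depth was estimated from the most common ratio to PET 10 mg/L among contigs between 0.15 and 4 FPKM in both libraries. As a share of PET 10 mg/L, this estimate was 93.3% for PET 100 mg/L, 92% for the surfactant control and 116% for the untreated control. Markers of liver, muscle, epidermis, lens, retina, pancreas, blood and neurons were present in all 4 libraries, as whole larvae would give. Unscaled, the median annotation was 0.04 higher in log2 at PET 100 mg/L than at PET 10 mg/L, and all ratios below are relative to that shift.

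Most annotations lay close together at the 2 concentrations. The log2 ratio had an interquartile range of 0.21 and a standard deviation of 0.22 across annotations. Between the 2 libraries without fibres, measured the same way, these were 0.19 and 0.23. At PET 100 mg/L 15 annotations were at least 1.5-fold higher (0.558% of 2686) and 30 at least 1.5-fold lower (1.12%), 45 in all (1.68%). Surfactant control against untreated control gave 36 (1.34%) by the same rule, 18 higher and 18 lower. The other comparisons gave 54 for PET 100 mg/L against surfactant control (2.01%), 61 against untreated control (2.27%), 51 for PET 10 mg/L against surfactant control (1.9%) and 48 against untreated control (1.79%). The number past 1.5-fold between the fibre concentrations was thus near that between any other pair of libraries. At 2-fold there were 9 (0.335%), 3 higher and 6 lower, beside 6 (0.223%) between the libraries without fibres.

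**Figure D1:**
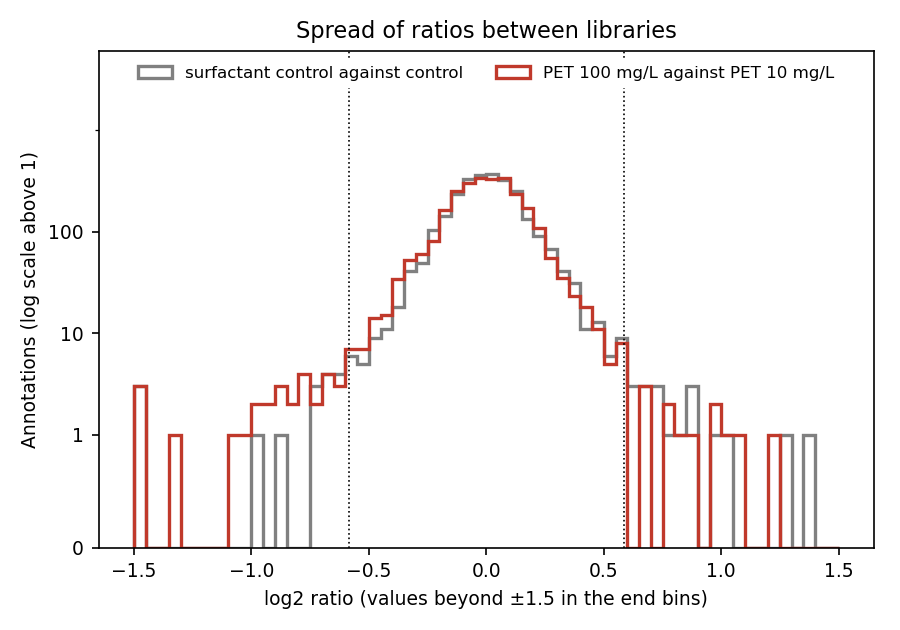
Number of annotations (log axis above 1) by log2 ratio for PET 100 mg/L against PET 10 mg/L (red) and surfactant control against untreated control (grey), 1 library each; dotted lines mark 1.5-fold. The 2 distributions overlap over most of their range. Below the lower line there are 30 annotations in red and 18 in grey, and above the upper line 15 in red and 18 in grey.

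The share past 1.5-fold between the PET libraries did not fall steadily with level. Between 10 and 20 FPKM, 26 of 1164 (2.23%) were past 1.5-fold between the PET libraries, and 26 (2.23%) between the libraries without fibres. From 20 to 50 FPKM there were 11 of 829 (1.33%) and 8 (0.965%), and from 50 to 200 FPKM 4 of 460 (0.87%) and 1 (0.217%). At 200 FPKM and above there were 4 of 233 (1.72%) between the PET libraries and 1 (0.429%) between the libraries without fibres. Those 4 were NLRC3, MT-ND2 and MT-ND1, all lower at PET 100 mg/L, and ACTN1, which was higher. They are described below.

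**Figure D2:**
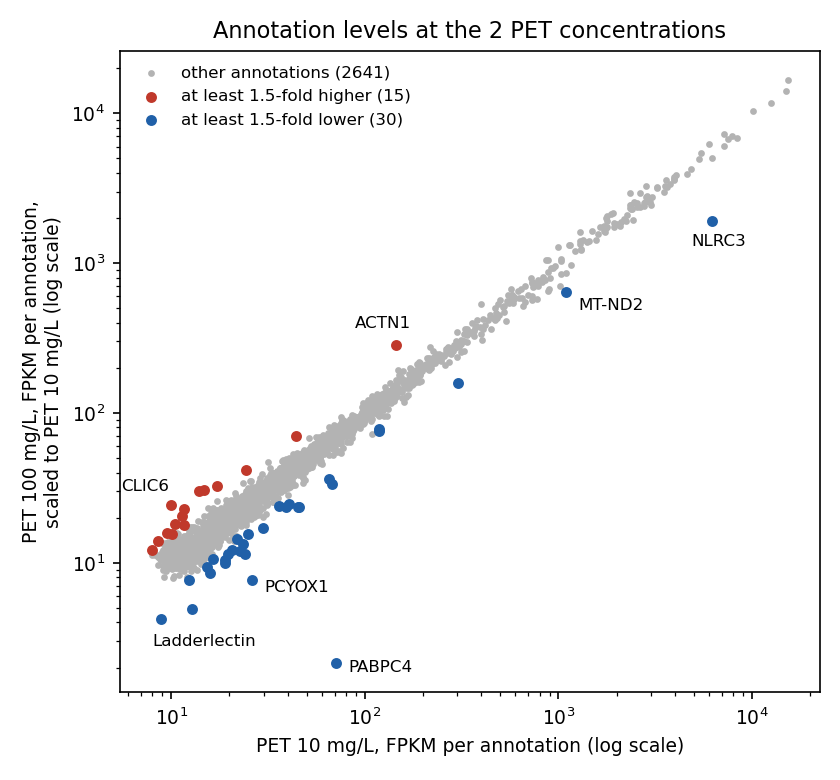
Summed FPKM of each of 2686 annotations at PET 10 mg/L (x, log axis) and PET 100 mg/L scaled to it (y, log axis), 1 library each. Of the 15 annotations at least 1.5-fold higher (red) 13 average under 50 FPKM, and of the 30 at least 1.5-fold lower (blue) 24 do. NLRC3, ACTN1 and MT-ND2 are among the exceptions. Such levels are also common over all 2686, where 1164 average 10 to 20 FPKM and 829 average 20 to 50.

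Annotations that PET 100 mg/L alone set apart were rare. In 11 annotations (0.41%) that library lay at least 1.5-fold beyond each of the other three, 4 above them (0.149%) and 7 below (0.261%). Taking PET 10 mg/L as the library that stands apart gave 7 (0.261%), the surfactant control 5 (0.186%) and the untreated control 6 (0.223%). In RNA of whole larvae, fewer cells of a type and less RNA per cell cannot be told apart.

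Of the 4 annotations above all others at PET 100 mg/L, CLIC6, kallikrein-14 and EAF2 are described here, each resting on 1 contig. Values follow in the order untreated control, surfactant control, PET 10 mg/L and PET 100 mg/L. CLIC6, of the chloride intracellular channel family, was at 10.5, 9.30, 9.96 and 24.9 FPKM, a log2 ratio of 1.24 between the fibre concentrations and the highest of all 2686. Its other 3 libraries were nearly level and averaged just under the 10 FPKM filter. CLIC6 was thus kept, and could rank here, only through its PET 100 mg/L value. Kallikrein-14 (KLK14), a secreted serine protease found in mammalian skin, was at 13.2, 17.5, 13.8 and 30.9 FPKM (ratio 1.09). EAF2, a partner of the transcription elongation factor ELL, was at 11.7, 14.2, 11.6 and 23.7 FPKM (ratio 0.95). In both, PET 10 mg/L lay between or beside the libraries without fibres and PET 100 mg/L well above.

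The 7 annotations below all others were NLRC3, SPRY1, RBM12B, ladderlectin, RBM5, PYGB and MT-ND2. NLRC3, a receptor-like NLR protein whose relatives are greatly expanded in fish genomes, was the most abundant, at 3605, 5804, 6239 and 1977 FPKM (ratio -1.70). These sums cover 58 contigs, but the difference lay in 1 contig, at 2714, 4895, 5315 and 1071 FPKM. The other contigs of the annotation summed to 890, 909, 924 and 906 FPKM and hardly differed between libraries. The same order, PET 100 mg/L lowest, then untreated control, surfactant control and PET 10 mg/L, with at least a 2-fold gap between the PET libraries, was found in 7 of the 488 contigs averaging 200 FPKM or more, this one and 6 without annotation. Together these 7 took 1.83%, 3.25%, 3.62% and 0.799% of the FPKM of a library. Their ratio of PET 10 mg/L to PET 100 mg/L ran from 3.92 to 5.88, and that of surfactant control to untreated control from 1.75 to 2.36. The order and the 2-fold gap, taken from the NLRC3 contig, were required in picking these contigs, so the directions of these ratios are no separate result. Contigs in other orders were not counted. The NLRC3 contig itself was at 2714 FPKM in the untreated control and 4895 in the surfactant control, so the libraries without fibres differed there as well.

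The other 6 covered immune, signalling, RNA-binding and metabolic proteins. Ladderlectin, a soluble lectin that binds microbial surfaces in trout, was at 14.4, 17.8, 8.82 and 4.36 FPKM (ratio -0.98), and was lower at each step from the surfactant control through both fibre concentrations. SPRY1, an inhibitor of growth factor receptor signalling, was at 14.7, 16.4, 12.9 and 5.04 FPKM (ratio -1.31). In the untreated control that value came from a contig listed at 0 in the other libraries, and in those from a contig listed at 0 in the control. RBM5, a splicing factor, was at 49.98, 40.3, 45.9 and 24.2 FPKM (ratio -0.95), and RBM12B, another RNA-binding protein, at 19.8, 17.3, 24.2 and 11.7 FPKM (ratio -1.06). PYGB, the brain form of glycogen phosphorylase, which releases glucose units from glycogen, was at 22.8, 21.7, 22.7 and 12.4 FPKM (ratio -0.88). In PYGB the 3 other libraries were nearly level. Its main contig was at 19.49, 18.35, 20.24 and 12.43 FPKM. The rest of the sum was at 3.27, 3.38 and 2.43 FPKM and then listed at 0 at PET 100 mg/L.

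**Figure D3:**
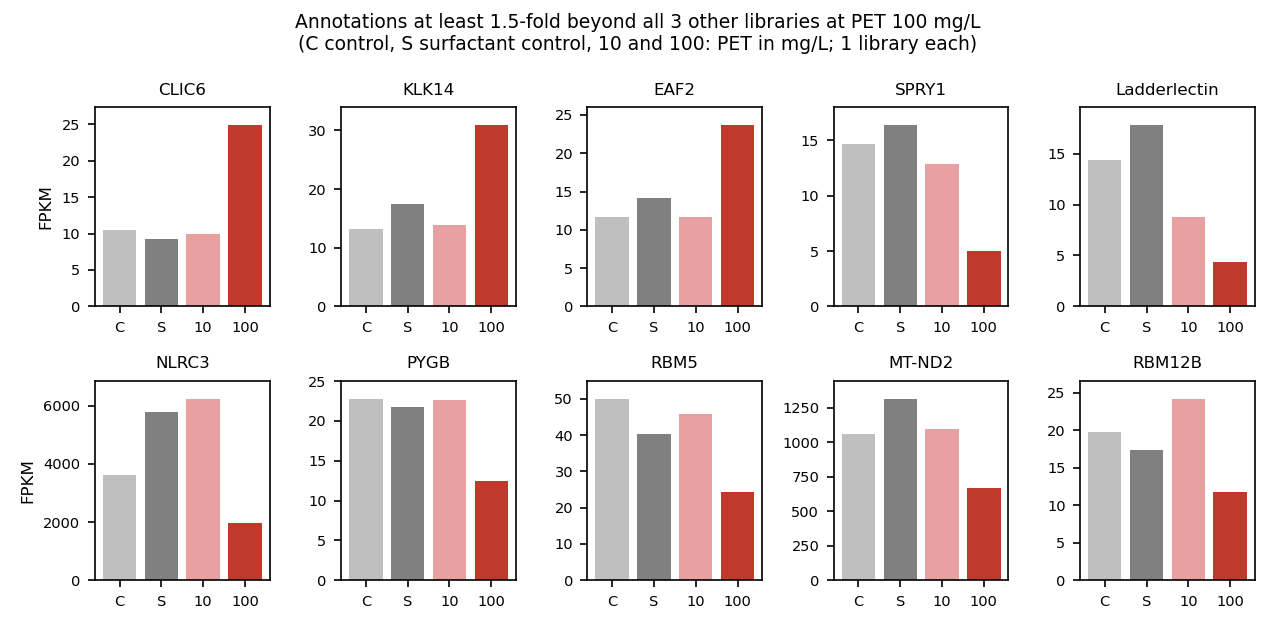
FPKM (bars from 0) in each of the 4 libraries for 10 annotations where PET 100 mg/L lay at least 1.5-fold above (CLIC6, KLK14, EAF2) or below (the other panels) every other library. CLIC6 and PYGB are level in the other 3 libraries, whereas ladderlectin already differs between surfactant control and PET 10 mg/L.

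Complement C3 and factor B were higher at PET 100 mg/L than at PET 10 mg/L, while mannose-binding protein C and LECT2 were not. Of 7 annotations of the complement and acute phase list past the level filter, 5 had a ratio above 0, and PET 100 mg/L was the highest of the 4 libraries in 5; over all annotations the latter held for 758 of 2686. Of the 7, 3 were at least 25% higher and 0 at least 20% lower, beside 96 (3.57%) and 133 (4.95%) of all annotations. These limits mark the same fold in either direction and are called the list limit below. The list median was 0.17, where that of all annotations is 0. With a level filter of 50 FPKM, which left C3, mannose-binding protein C and LECT2, it was -0.02. That filter also changed the scaling factor of PET 100 mg/L, from 1.03 to 1.01. The median of PET 10 mg/L against surfactant control was 0.32, and that of surfactant control against untreated control 0.24, so the libraries below PET 100 mg/L were spread in the same direction.

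Complement C3, the protein on which all activation routes converge, was at 87.1, 111, 148 and 198 FPKM (ratio 0.38), higher at every step. Its main contig, with 81% of the sum, held the same order at 69.9, 83.2, 121 and 167 FPKM. Factor B (Cfb), which joins C3b to form the alternative pathway convertase, was at 17.4, 23.3, 21.7 and 28.8 FPKM (ratio 0.36). Factor I (Cfi), the protease that inactivates C3b, was at 17.5, 20.5, 24.2 and 28.1 FPKM (ratio 0.17). For factor I the ratio was -0.07 on its main contig and 0.63 on the rest of the sum. The C8 alpha chain, part of the membrane attack complex, was at 10.4, 11.3, 14.3 and 15.9 FPKM (ratio 0.10).

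Mannose-binding protein C, a recognition molecule of the lectin pathway, was at 40.3, 47.7, 60.1 and 59.4 FPKM (ratio -0.06). LECT2, a chemotactic factor secreted by the liver, was at 65.4, 51.6, 143 and 133 FPKM (ratio -0.15), so that both fibre libraries lay far above both libraries without fibres and close to each other. Below the level filter, hepcidin-1, the iron-regulating peptide of the liver that is induced in inflammation, was at 4.79, 2.57, 4.76 and 10.9 FPKM (ratio 1.08), and C-reactive protein at 7.53, 7.94, 4.48 and 9.59 (ratio 0.98). Both were highest at PET 100 mg/L. Of the 8 list members averaging 1 to 10 FPKM, 4 lay above 0 and 4 below. Complement C7 was at 4.74, 5.15, 4.90 and 5.68 FPKM (ratio 0.15). Complement C9, which forms the pore of the membrane attack complex, was at 1.3, 2.55, 1.6 and 1.11 FPKM (ratio -0.41), lowest at PET 100 mg/L. The C1q-like proteins C1QL3 and C1QL4 had ratios of -0.38 and -0.11.

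**Figure D4:**
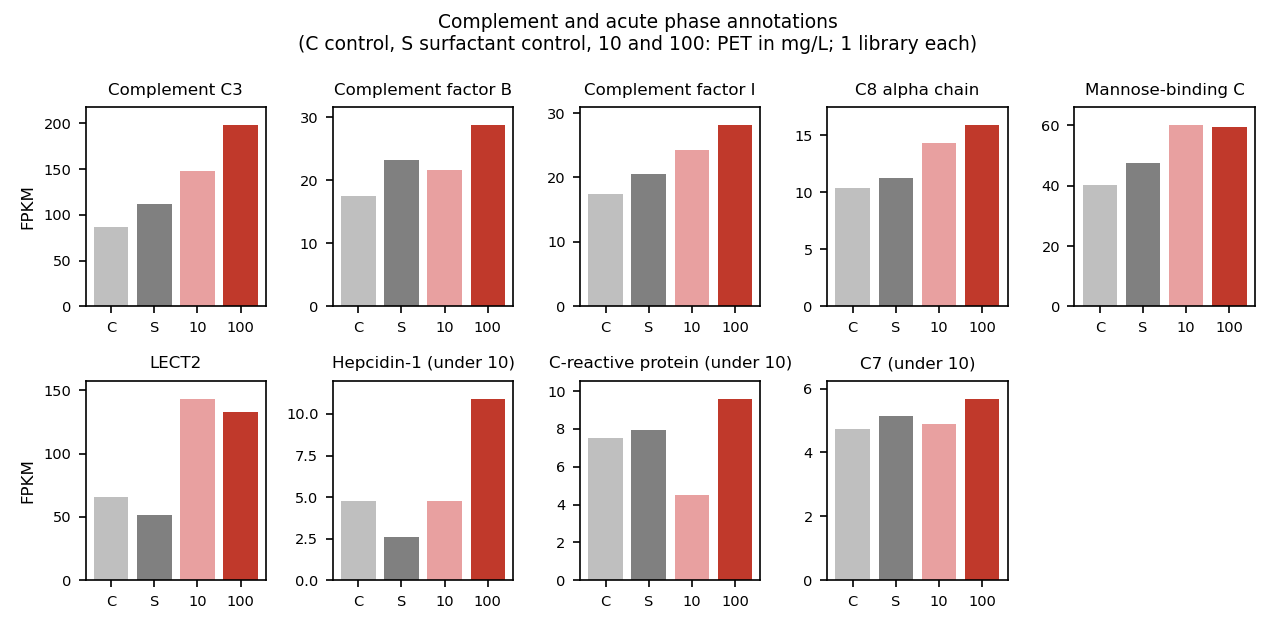
FPKM (bars from 0) in each of the 4 libraries for 6 of the 7 complement and acute phase annotations past the level filter and 3 with a mean under 10 FPKM. C3 and factor I step up from left to right, whereas LECT2 is similar at both PET concentrations. The 3 drawn with a mean under 10 FPKM all had ratios above 0. Members at that level with ratios below 0 are not drawn: C9 (-0.41), C1QL3 (-0.38), C1QL4 (-0.11) and the C1q receptor (-0.07).

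Other plasma proteins of the liver mostly had ratios above 0. Of 14 clotting and plasma protein annotations 12 had a ratio above 0 and PET 100 mg/L was the highest library in 11, with a median of 0.17, but 0 were past the list limit. Alpha-1-antitrypsin homolog, a protease inhibitor, was at 1074, 1364, 1298 and 1664 FPKM (ratio 0.31), and fibrinogen gamma chain, a clotting protein, at 125, 157, 150 and 185 (ratio 0.26). Serotransferrin-1, the iron carrier of plasma, was at 784, 866, 889 and 1086 FPKM (ratio 0.24). In all of these the surfactant control also lay above the untreated control, and that step had a list median of 0.27. Alpha-2-HS-glycoprotein was at 239, 284, 312 and 298 FPKM (ratio -0.11). Lipid carriers, also largely of liver and gut, had a median of -0.10 with 9 of 12 below 0: fatty acid-binding protein 10-A of liver was at 1222, 1609, 1557 and 1481 FPKM (ratio -0.12), gastrotropin (FABP6), a bile acid carrier of the gut, at 519, 541, 654 and 536 (ratio -0.33), and apolipoprotein D at 1735, 1892, 1777 and 2129 (ratio 0.22). Whether a change in the share of liver RNA had a part in these values was not tested.

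Digestive enzymes were mostly a little higher at PET 100 mg/L than at PET 10 mg/L. Of 15 digestive enzyme annotations 11 had a ratio above 0, PET 100 mg/L was the highest library in 10, and the median was 0.15. Past the list limit 1 was higher and 0 lower, beside 96 (3.57%) and 133 (4.95%) of all annotations. Alpha-amylase 2B, which cuts starch, was at 2471, 2572, 2354 and 3025 FPKM (ratio 0.32), and chymotrypsin-like protease CTRL-1 at 1030, 959, 865 and 1087 (ratio 0.29). Chymotrypsin B, at 16.5, 10.4, 11.9 and 17.8 FPKM (ratio 0.51), was the member past the limit, and there the untreated control was nearly as high. Trypsin-1 was nearly level, at 6884, 7081, 7188 and 7445 FPKM. Chymotrypsinogen 2, among the 4 members below 0, was at 993, 829, 783 and 730 FPKM (ratio -0.14). The list median of PET 100 mg/L was 0.08 against the surfactant control and 0.07 against the untreated control. For PET 10 mg/L the same medians were -0.05 and -0.09.

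After scaling, muscle, skin and energy metabolism lists lay slightly lower at PET 100 mg/L. The sarcomere list had a median of -0.11 over 36 annotations, 25 of them below 0, and PET 100 mg/L was the lowest library in 20, which held for 734 of all 2686. There was 1 past the list limit in each direction, beside 96 (3.57%) higher and 133 (4.95%) lower of all 2686. Desmin (DES), the intermediate filament of muscle, was at 133, 141, 159 and 121 FPKM (ratio -0.43), and skeletal troponin C, a calcium sensor of contraction, at 8516, 8343, 8338 and 7021 (ratio -0.29). Skeletal alpha-actin went the other way, at 588, 393, 398 and 547 FPKM (ratio 0.42), with the untreated control highest. Troponin C is 1 of the 5 most abundant annotations of the larvae. Of the others, fast skeletal myosin heavy chain, the motor of white muscle, was at 19442, 15401, 15339 and 17208 FPKM (ratio 0.12), skeletal myosin light chain 3 at 13851, 12639, 12525 and 12000 (ratio -0.11), and parvalbumin beta, a calcium buffer of fast fibres, at 9880, 11414, 10155 and 10608 (ratio 0.02). Keratins and epidermal junction proteins had a median of -0.10 with 8 of 10 below 0. Keratin 14, of basal epidermis in mammals, was at 500.2, 532, 533 and 423 FPKM (ratio -0.38), and keratin 13 at 6917, 7676, 7195 and 6191 (ratio -0.26). Desmoglein-3, a desmosomal adhesion protein, was at 103, 92.6, 75.5 and 96.5 FPKM (ratio 0.31).

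Enzymes of glycolysis and creatine kinases had 14 of 17 members below 0, with a median of -0.06. Aldolase B was at 2285, 2725, 3006 and 2529 FPKM (ratio -0.29) and the mitochondrial creatine kinase of muscle (CKMT2) at 677, 738, 670 and 563 (ratio -0.29), while lactate dehydrogenase A was at 67.6, 59.7, 57.7 and 71.2 (ratio 0.26). The nuclear-encoded respiratory chain had 38 of 48 members below 0, with a median of -0.07. Past the list limit 2 were lower and 0 higher, beside 133 (4.95%) and 96 (3.57%) of all 2686 annotations. The 2 lower ones belong to complex I, the NADH dehydrogenase: NDUFB2 was at 586, 689, 732 and 581 FPKM (ratio -0.38) and NDUFA2 at 139, 153, 162 and 131 (ratio -0.36). The glycolysis and nuclear-encoded chain medians were little larger than the scaling shift of 0.04, and their counts below 0 are relative to it. With scaling on the most abundant annotations the factor for PET 100 mg/L was 1.01 rather than 1.03. Ribosomal proteins had 35 of 45 below 0 with a median of -0.04, a step no larger than the scaling shift, and without scaling that median was 0.00.

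Of 13 annotations in the list of mitochondrially encoded subunits, 4 passed the level filter. The 2 of complex I among them, MT-ND1 and MT-ND2, were lower at PET 100 mg/L, and the 2 of cytochrome c oxidase were close. MT-ND2 was at 1061, 1313, 1093 and 664 FPKM (ratio -0.76), below every other library. MT-ND1 was at 188, 270, 302 and 163 FPKM (ratio -0.93), and there the untreated control was near PET 100 mg/L. MT-CO3 was at 7121, 8289, 7884 and 7314 FPKM (ratio -0.15), and MT-CO1, of the same chain, at 13263, 14881, 15079 and 14558 (ratio -0.09). Each ND annotation rested on 1 contig. The list median of -0.46 thus lies between 2 unlike pairs, and it was -0.29 when annotations averaging 1 FPKM or more were kept.

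Among 18 annotations of cytokines and innate immunity 4 were lower past the list limit at PET 100 mg/L and 0 higher. Over all 2686 annotations 133 (4.95%) were lower and 96 (3.57%) higher. The list median was -0.01, and 0.03 without scaling. The 4 included ladderlectin and NLRC3, whose difference lay in 1 contig. The others were the interferon-induced GTPase GVIN1, at 25.1, 24.3, 25.95 and 20.2 FPKM (ratio -0.40), and NLRP3, the sensor of the inflammasome in mammals, at 260, 267, 300.2 and 244.8 (ratio -0.34). The lectin nattectin, at 48.8, 38.5, 65.0 and 53.7 FPKM (ratio -0.32), and interferon regulatory factor 1, at 17.98, 16.9, 25.2 and 22.0 (ratio -0.24), were highest at PET 10 mg/L. Fish-egg lectin was highest at PET 100 mg/L, at 96.0, 98.6, 106 and 122 FPKM (ratio 0.15). GVIN1 had a ratio of -0.04 on its main contig alone.

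Most calcium hormone genes were measured at low levels. CYP24A1, which inactivates vitamin D, was the calcium hormone annotation past the filter, at 23.6, 17.9, 17.2 and 26.6 FPKM (ratio 0.57). The untreated control lay near PET 100 mg/L, and the surfactant control near PET 10 mg/L. Stanniocalcin, under the filter, was at 8.95, 3.36, 5.33 and 11.5 FPKM (ratio 1.00), so the libraries without fibres differed widely as well. The calcium-sensing receptor, a sum over 34 contigs also under the filter, was at 6.89, 7.83, 7.78 and 11.2 FPKM (ratio 0.46). Stanniocalcin-2 went from 3.05 to 2.43 FPKM (ratio -0.31). PTH1R, the receptor of parathyroid hormone, was at 4.21, 2.94, 4.12 and 2.65 FPKM (ratio -0.59). Of the 6 members averaging 1 to 10 FPKM, 4 lay above 0 and 2 below. Of 13 calcium transport annotations 8 lay above 0 with a median of 0.02. S100G, a cytosolic calcium buffer of epithelia, was at 570 FPKM at PET 10 mg/L and 690 at PET 100 mg/L (ratio 0.23), above 460 and 451 without fibres. The plasma membrane pump ATP2B2 was at 18.3, 18.7, 16.0 and 22.1 FPKM (ratio 0.41), which was 0.05 on its main contig, and SERCA1 of muscle, the pump that refills the sarcoplasmic reticulum, at 1177, 788, 890 and 695 (ratio -0.40).

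Merkel cell markers did not share a direction. Of 6 past the filter 3 lay above and 3 below 0, with a median of 0.03. FGF13 was at 11.5, 12.4, 10.2 and 14.6 FPKM (ratio 0.46) and keratin 8, a filament of simple epithelia and of Merkel cells, at 1845, 1791, 1859 and 2200 (ratio 0.20). SNAP25a, of synaptic vesicle release, was at 36.1, 34.2, 40.1 and 32.8 FPKM (ratio -0.33). The touch channel PIEZO2, under the filter, had a ratio of 0.62 but was highest in the untreated control, at 4.21 FPKM against 3.41 at PET 100 mg/L. All of these are also made by other cells of a larva.

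Of 19 annotations for detoxification 13 had a ratio above 0 and 6 below, with a median of 0.07. Past the list limit 3 were higher and 0 lower, beside 96 (3.57%) and 133 (4.95%) of all 2686 annotations. All 3 were UDP-glucuronosyltransferases, which attach a sugar acid to lipophilic compounds. UGT1-2 was at 14.7, 22.3, 11.7 and 18.2 FPKM (ratio 0.57), UGT2A1 at 11.9, 15.2, 13.7 and 19.5 (ratio 0.45) and UGT2A3 at 9.32, 10.3, 9.99 and 14.1 (ratio 0.43). For UGT1-2 the surfactant control was the highest library, while for UGT2A1 and UGT2A3 it was PET 100 mg/L. UGT2A3 averaged just under 10 FPKM in its other libraries and passed the level filter only through its PET 100 mg/L value. Its place among the 3 is therefore no separate result. Cytochrome P450 1B1 was at 26.9, 27.1, 32.1 and 35.9 FPKM (ratio 0.12) and CYP3A40 at 27.7, 25.2, 26.9 and 24.6 (ratio -0.17). Glutathione S-transferase Mu 1 had the lowest ratio of the list, at 459, 556, 337 and 308 FPKM (ratio -0.17). There both fibre libraries lay below both libraries without fibres.

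Stress regulators and the cell cycle gave small or mixed differences. Of 15 immediate-early annotations 1 was higher past the list limit and 0 lower, beside 96 (3.57%) and 133 (4.95%) of all annotations. That 1 was EGR1, an early response transcription factor, at 40.7, 24.8, 25.8 and 36.0 FPKM (ratio 0.43), with the untreated control highest. The stress-induced regulator NUPR1 was at 12.4, 10.1, 14.5 and 19.3 FPKM (ratio 0.36). Heat shock proteins had a median of 0.03, and antioxidant enzymes one of 0.01 with 0 of 11 past the list limit. In the cell cycle list 7 of 8 lay above 0, with a median of 0.13. The mitotic kinase CDK1 was at 19.7, 18.4, 17.1 and 23.2 FPKM (ratio 0.38) and topoisomerase 2-alpha (TOP2A), which untangles replicated DNA, at 12.4, 9.41, 8.28 and 11.6 (ratio 0.42). PET 10 mg/L was the lowest library in both, and the list median of PET 100 mg/L against untreated control was -0.18. Thymidylate synthase, which makes a DNA precursor, was at 15.1, 13.8, 15.7 and 12.9 FPKM (ratio -0.32).

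The remaining lists are given by their medians. Proteasome subunits (25 annotations) had a median of 0.06, phototransduction (18) 0.07, collagens and matrix (18) -0.04, lens (12) -0.04 and ionocyte pumps (11) -0.02; without scaling the last 3 were 0.00, 0.01 and 0.02. Translation factors (27) had a median of -0.05, transposon-derived annotations (13) -0.06, matrix proteases (11) -0.08, cholesterol synthesis (6) -0.09, amino acid breakdown (9) -0.02, fasting and growth (8) 0.04, neurons (9) 0.01, the clock (5) 0.01, heme and iron (9) -0.02 and protocadherins (4) 0.18. Those of amino acid breakdown and of heme and iron were 0.02 without scaling. Among these genes, cathepsin L, a lysosomal protease, was at 1001, 1201, 1024 and 729 FPKM (ratio -0.53), and type I collagen alpha-2 chain at 160, 147, 120 and 107 (ratio -0.21). Rhodopsin kinase was at 12.2, 17.1, 10.7 and 16.4 FPKM (ratio 0.55). Cathepsin L was lowest at PET 100 mg/L, whereas rhodopsin kinase was lowest at PET 10 mg/L.

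**Figure D5:**
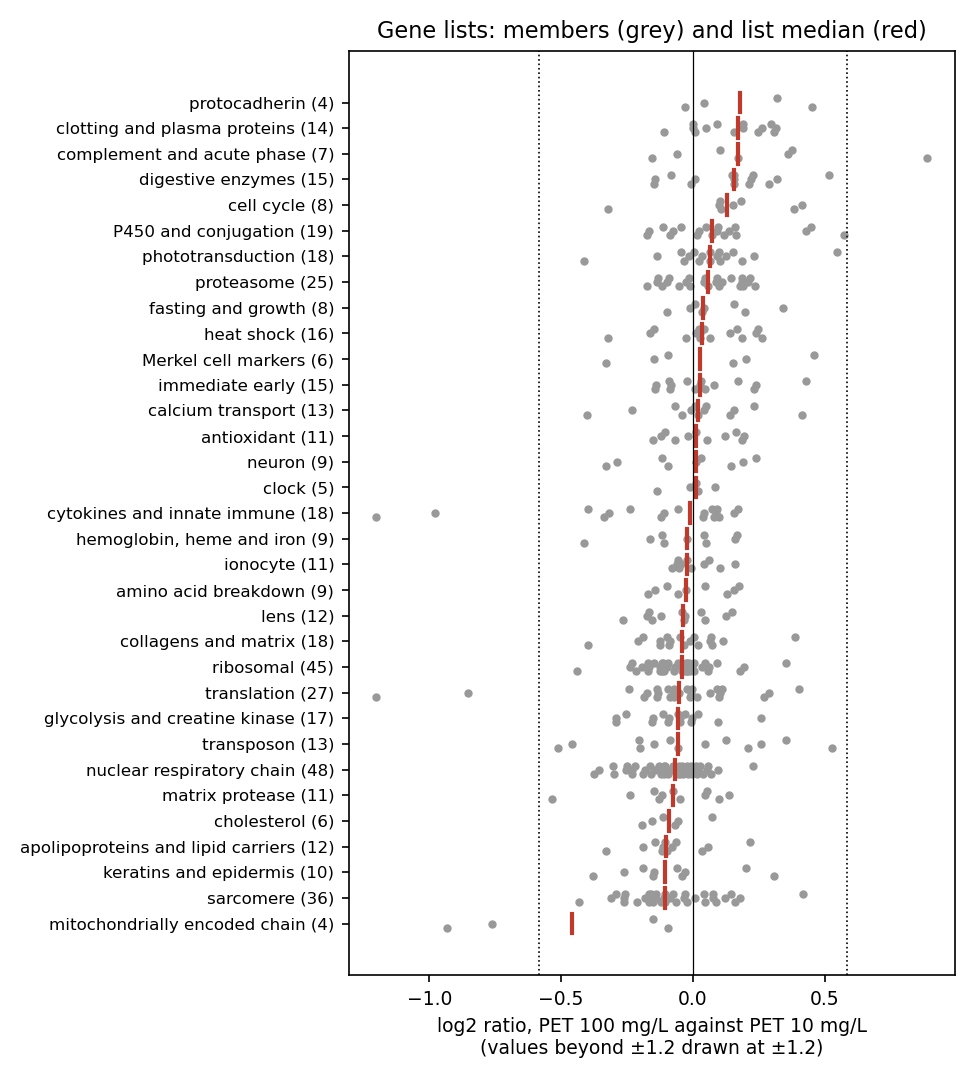
Log2 ratio of PET 100 mg/L to PET 10 mg/L (x) for the members (grey points) and median (red bar) of each gene list with at least 4 annotations past the filter, their number in brackets; dotted lines mark 1.5-fold. Apart from the mitochondrially encoded chain, at -0.46, the list medians lie between -0.11 and 0.18.

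Where both fibre concentrations continued in 1 direction there were few annotations. In 6 (0.223%) the surfactant control, PET 10 mg/L and PET 100 mg/L stepped up by at least 25% each time, with the untreated control also below PET 10 mg/L, and in 5 (0.186%) they stepped down. The former included complement C3, NUPR1, the von Willebrand domain protein VWA7 at 24.2, 19.4, 28.9 and 37.8 FPKM (ratio 0.34), the cap-binding factor EIF4E3 at 15.1, 12.01, 15.5 and 21.2 (ratio 0.40) and a protein annotated as gastrula zinc finger XlCGF48.2 at 11.9, 8.33, 16.9 and 23.3 (ratio 0.41, or -0.13 without its main contig). In EIF4E3 the untreated control and PET 10 mg/L were nearly equal. The latter were SPRY1, ladderlectin, ZNF300, FRY and ST6GALNAC2. The sialyltransferase ST6GALNAC2 was at 13.2, 16.8, 10.2 and 8.19 FPKM (ratio -0.34), and FRY, a regulator of cell shape, at 22.1, 21.9, 15.8 and 11.97 (ratio -0.43). For ST6GALNAC2 the step between the fibre concentrations lay mainly in its main contig, at 4.48 and 2.7 FPKM. Its other contigs gave 5.71 and 5.49. For FRY the step lay in 1 contig, at 11.02, 9.16, 3.64 FPKM and then listed at 0, and its other contigs gave 11.1, 12.8, 12.1 and 11.97.

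For most annotations past 1.5-fold, neither fibre library was itself 1.5-fold outside the libraries without fibres. Of the 15 higher ones, 4 were outside both of those libraries by 1.5-fold at PET 100 mg/L, 4 at PET 10 mg/L and 7 at neither. Of the 30 lower ones, 6 were outside at PET 100 mg/L alone, 2 at PET 10 mg/L alone, 2 at both and 20 at neither. PET 100 mg/L lay within the range of the libraries without fibres in 3 of the higher and 5 of the lower, and PET 10 mg/L in 3 and 7. After scaling, PET 100 mg/L was the highest library in 11 of the 15 and the lowest in 24 of the 30. Its side of PET 10 mg/L was set by the call.

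Those with PET 10 mg/L as the lowest library included alpha-actinin-1 (ACTN1), which cross-links actin, at 236, 244.9, 145 and 294 FPKM (ratio 0.97). Here 1 of 11 contigs, at 103, 112, 17.8 and 178 FPKM, carried the difference, and without it the ratio was -0.18. TRIM11, a ubiquitin ligase, was at 21.0, 22.3, 11.3 and 21.2 FPKM (ratio 0.83) and the transcription factor SP3 at 18.1, 17.3, 10.5 and 18.8 (ratio 0.77). Without the main contig these ratios were -0.037 for TRIM11 and 0.15 for SP3. In the sums PET 100 mg/L lay close to the libraries without fibres. Kielin/chordin-like protein (KCP), a modulator of BMP signalling, was at 23.0, 32.7, 14.8 and 31.6 FPKM (ratio 1.02). Deoxycytidylate deaminase (DCTD), of thymidine nucleotide supply, was at 12.7, 14.9, 9.52 and 16.2 FPKM (ratio 0.70), and its main contig alone had a ratio of -0.087.

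The other higher annotations were highest at PET 100 mg/L as deposited, by less than 1.5-fold over 1 or more of the rest. Butyrophilin-like protein 8, of an immune receptor family, was at 25.5, 31.0, 24.3 and 42.6 FPKM (ratio 0.76), and the RNA-binding splicing regulator CELF2 at 9.20, 9.99, 8.56 and 14.4 (ratio 0.67). CELF2 was under 10 FPKM in every library but PET 100 mg/L, so it passed the level filter only through that value. Tubulin beta-7 was at 38.6, 64.4, 44.2 and 72.2 FPKM (ratio 0.66), so that the surfactant control came close to PET 100 mg/L. CAMK2B, a calcium-dependent kinase of neurons, jagunal homolog 1-B, an endoplasmic reticulum protein, and putative GTP-binding protein 6 had ratios of 0.59 each, and after scaling the last of these was highest in the untreated control.

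Those with a high value at PET 10 mg/L included PCYOX1, which degrades prenylated cysteine, at 3.03, 4.05, 26.2 and 7.93 FPKM (ratio -1.70). Both fibre libraries lay above both others, and PET 100 mg/L was nearer to them. PCYOX1 was under 10 FPKM in every library but PET 10 mg/L, so it passed the level filter only through that value. The poly(A)-binding protein PABPC4 had the lowest ratio of all, -4.76, at 41.4, 2.26, 70.8 and 2.2 FPKM. Its main contig was listed at 0 in the surfactant control and at PET 100 mg/L, and without that contig the ratio was 0.04. Major vault protein (MVP), the shell protein of vault particles, was at 49.6, 47.1, 68.0 and 34.4 FPKM (ratio -1.01) and so departed in opposite directions at the 2 concentrations. The translation initiation subunit EIF3A was at 48.7, 68.7, 65.5 and 37.2 FPKM (ratio -0.85), highest in the surfactant control, and dystrophin (DMD), which anchors the muscle cytoskeleton, at 15.4, 11.3, 18.9 and 10.8 (ratio -0.83). The connexin GJB5 was at 11.8, 12.2, 19.0 and 10.3 FPKM (ratio -0.90), MAP6, a stabilizer of microtubules, at 10.4, 14.8, 15.8 and 8.80 (ratio -0.85), and a protein annotated as PF07_0086 at 36.4, 30.0, 45.3 and 24.2 (ratio -0.94). In dystrophin and GJB5 the surfactant control was within 2 FPKM of PET 100 mg/L.

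The last 14 of the lower annotations were closer to the limit than these. They included several immune proteins: an eosinophil peroxidase at 26.2, 21.3, 39.0 and 24.1 FPKM (ratio -0.72), natterin-3, of a fish family of pore-forming toxins, at 17.6, 17.5, 24.8 and 16.0 (ratio -0.66), and the peptidoglycan-cleaving N-acetylmuramoyl-L-alanine amidase at 34.9, 28.9, 36.2 and 24.6 (ratio -0.59). Thyroid peroxidase, which iodinates thyroglobulin, was at 102, 80.0, 119 and 78.2 FPKM (ratio -0.64). In the peroxidases and natterin-3 the surfactant control as deposited was within 3 FPKM of PET 100 mg/L, and PET 10 mg/L was highest. The surfactant control lay below PET 100 mg/L in the eosinophil peroxidase. In thyroid peroxidase and natterin-3 it lay above, and PET 100 mg/L was the lowest library. These 4 were picked out after their values were seen. The remainder were MTA1, TYRO3, PDCL3, KIF3B, MED29, HAVCR1, HERC1, BRD9, TRIM16 and CD2BP2. Just inside the 1.5-fold limit lay jagunal homolog 1-B and GTP-binding protein 6 at 0.59 and the amidase at -0.59, and just outside it translation initiation factor IF-2 and CSRP1, both at -0.58.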

How the data were processed

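RNA of whole larvae was sequenced in 4 libraries, 1 per group. The deposited table gave FPKM per contig and library, per the file headers. Per the submitters' processing notes, RSEM, Bowtie and bcl2fastq (2.20.0.422) were among the tools. Assembly and annotation of the contigs are not given in the sources used here, and no genome was used. FPKM was summed over contigs of equal description and kept at a 4-library mean of at least 10. Libraries were scaled by the median ratio to PET 10 mg/L (factor 1.03 for PET 100 mg/L), and log2 ratios used a pseudocount of 0.5. Calls were at 1.5-fold, list counts at a step of 25% upwards or 20% downwards. With 1 library per group no test was run and counting error is unknown. A value of exactly 0 may be an estimate that failed and is given as listed at 0. The comparison and the gene lists were chosen with earlier results of these data known, and 32 mismatched list entries were removed after the matches were seen. Named annotations were the 15 highest and 15 lowest, those where PET 100 mg/L stood apart from all 3 other libraries (up to 12 each way), those ordered by concentration (up to 6 each way), the 5 most abundant, up to 6 members per list and whole lists of calcium, Merkel cell and complement genes. A level filter of 1 or 50, a 2-fold limit, pseudocounts of 0.1 and 2, other scaling and main contigs alone were tried as alternatives. Python 3.11.15, pandas 2.3.3 and numpy 2.4.6 were used. The scaling, the log2 ratios and the 1.5-fold call were tested on simulated data, and the other steps were not. Not all annotations chosen by these rules are reported here.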

Additional observations from a re-analysis of the deposited data

Results flagged for a closer look

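Contigs without annotation did not enter the comparisons, apart from the 6 described beside NLRC3. Of 5054 with a mean of at least 10 FPKM, 214 were at least 1.5-fold higher and 234 lower at PET 100 mg/L than at PET 10 mg/L (8.86%), beside 7.99% past 1.5-fold for surfactant control against untreated control. Among the 220 with a mean of at least 200 FPKM, 2 were at least 1.5-fold above all 3 other libraries at PET 100 mg/L, which put them here as signal outside the annotated data. Contig TR50367|c0_g1_i1 was at 342.6 FPKM in the untreated control, 332.5 in the surfactant control, 256 at PET 10 mg/L and 724.8 at PET 100 mg/L, a log2 ratio of 1.46 between the fibre concentrations. Contig TR24432|c0_g1_i1 was at 124.4, 132.8, 306.4 and 617.3 FPKM in the same order, a log2 ratio of 0.97, and so was higher at each step. A further 7 were at least 1.5-fold below all others, and 6 of these are the ones described beside NLRC3. What these contigs encode is unknown, and with 1 library each the differences have no replicate check.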

How the results depend on the processing

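No paired analysis was possible because each group held 1 library, and for the same reason no replicate could be left out. The counts of annotations higher, lower, above all 3 others and below all 3 others at PET 100 mg/L (15, 30, 4 and 7) stayed within 1.5 times under pseudocounts of 0.1 and 2, without scaling, with scaling on the most abundant annotations and on main contigs alone. With a level filter of 1 FPKM they were 331, 339, 100 and 69, with a filter of 50 FPKM 2, 5, 0 and 2, and at 2-fold 3, 6, 1 and 1. At a filter of 1 FPKM, 10.4% of annotations were past 1.5-fold between the PET libraries and 10.1% between the libraries without fibres, and at 50 FPKM 1.01% and 0.866%. Of 231 named ratios, 21 had the other sign on main contigs alone, 4 without scaling, 3 with scaling on the most abundant annotations and 0 under either pseudocount; of the 137 whose other contigs averaged at least 1 FPKM, 33 had it without the main contig. Among ratios past 1.5-fold the sign turned for DCTD (-0.087 on its main contig) and, in an alternative added after the data were seen that drops the main contig, for ACTN1 (-0.18), TRIM11 (-0.037) and PABPC4 (0.041). Among smaller ratios it turned, for example, for factor I (-0.07) and ZNF300 (0.52) on the main contig and for XlCGF48.2 (-0.13) without it. The list median of complement was -0.02 with a filter of 50 FPKM, and that of the mitochondrially encoded chain -0.29 with a filter of 1 FPKM and -0.12 with mismatched entries kept, another alternative added after seeing the data. Also with a filter of 1 FPKM, medians were 0.44 for calcium hormones, 0.13 for Merkel markers, -0.06 for fasting and growth, 0.11 for amino acid breakdown, 0.13 for the clock and 0.03 for protocadherins; on main contigs they were 0.67 for calcium hormones and -0.11 for cytokines. Without scaling 7 of the 34 list medians had the other sign. So did 5 with a filter of 1 FPKM, 5 with a filter of 50 FPKM and 4 with scaling on the most abundant annotations. On main contigs alone 1 had it, and with mismatched entries kept 4. Apart from the medians given above, all list medians stayed within the typical difference between the libraries without fibres. The causes were not tested. Low FPKM and the unknown depth limit ratios of annotations under about 20 FPKM.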
